A study of Mus musculus with 10 samples.

Results

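Chromatin accessibility was examined at 7 genes of the secretory cells of the intestinal epithelium: the transcription factors Atoh1, Spdef and Gfi1, the goblet cell products Muc2, Tff3 and Clca1, and the Paneth cell product Lyz1. Members were taken by Ensembl gene ID (Atoh1 ENSMUSG00000073043, Spdef ENSMUSG00000024215, Gfi1 ENSMUSG00000029275, Muc2 ENSMUSG00000025515, Tff3 ENSMUSG00000024029, Clca1 ENSMUSG00000028255 and Lyz1 ENSMUSG00000069515), by a rule that uses no measured value though earlier results of these data were known when the genes were chosen, and make up 7 of the 44580 gene IDs and 61 of the 246479 peaks of the ATAC-seq table. ATAC-seq inserts sequencing adapters with a transposase into DNA that is not wrapped in nucleosomes, so that the number of reads over a region rises with its accessibility.

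The IECs (intestinal epithelial cells) came from the duodenum and upper jejunum of 5 WT mice (Zip14+/+, WT1 to WT5) and 5 KO mice (Zip14-/-, KO6 to KO10). Zip14, encoded by Slc39a14, is a plasma membrane importer of zinc and other metals. Both genotypes came from crosses of heterozygous mice backcrossed to C57BL/6, and the study's methods give young adult females unless stated otherwise, fed a standard diet and not fasted. The deletion is global, so that every cell type of a KO mouse lacks Zip14, and the IECs were purified by cell sorting with an antibody to EpCAM, a surface protein of all epithelial cells. Each mouse gave 1 library. Absorptive enterocytes, goblet cells and Paneth cells were thus measured together, and fewer cells of a type cannot be told apart from less accessible chromatin per cell.

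Secretory cells of the small intestine arise in the crypt from progenitors that escape Notch signalling and switch on Atoh1, a basic helix-loop-helix transcription factor required for the whole secretory lineage. Downstream of it, the ETS factor Spdef drives the maturation of goblet and Paneth cells, and the zinc finger repressor Gfi1 separates these from the enteroendocrine fate. Goblet cells secrete the gel-forming mucin Muc2, the trefoil peptide Tff3 and Clca1, a protease that acts on the mucus, whereas Paneth cells at the crypt base secrete antimicrobial proteins that include the lysozyme Lyz1.

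On GRCm38.p6, the RefSeq gene bodies lie on chromosome 6 at 64729125 to 64731245 (Atoh1), chromosome 17 at 27714446 to 27731003 (Spdef), chromosome 5 at 107716655 to 107725805 (Gfi1), chromosome 7 at 141690340 to 141754691 (Muc2), chromosome 17 at 31125306 to 31129611 (Tff3), chromosome 3 at 145004537 to 145032776 (Clca1) and chromosome 10 at 117287795 to 117292868 (Lyz1). Atoh1 held 10 peaks, Spdef 4, Gfi1 4, Muc2 9, Tff3 5, Clca1 18 and Lyz1 11, beside a median of 4 peaks per gene ID. Peaks are listed by gene ID without a position. In the order restored from the running number of the entries, the peaks of each member formed 1 unbroken run, and they are numbered here along that run. Where a peak lies relative to the start, exons or introns of its gene was not used here.

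RefSeq promoter windows were found for 5 of the 7 members, and Tff3 and Clca1 had no entry. The 250 bases before the start of transcription were searched on both strands for the E-box CAGNTG, the core letters to which basic helix-loop-helix factors such as Atoh1 bind. These windows are shown because Atoh1 heads the group and Muc2 and Gfi1 are the members whose window held the letters, written in capitals:
Atoh1, chr6:64728875-64729124, plus strand: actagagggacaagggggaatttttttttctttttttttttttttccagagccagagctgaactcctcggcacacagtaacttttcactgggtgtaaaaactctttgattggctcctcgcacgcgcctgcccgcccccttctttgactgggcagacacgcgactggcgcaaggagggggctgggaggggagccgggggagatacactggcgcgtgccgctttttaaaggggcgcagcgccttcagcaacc
Gfi1, chr5:107725806-107726055, minus strand: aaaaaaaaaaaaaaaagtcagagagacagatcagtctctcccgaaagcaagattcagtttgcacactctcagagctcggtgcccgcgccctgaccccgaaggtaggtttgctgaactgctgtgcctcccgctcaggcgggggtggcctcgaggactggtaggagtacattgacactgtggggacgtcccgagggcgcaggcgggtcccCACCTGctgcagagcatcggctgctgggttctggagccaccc
Muc2, chr7:141690090-141690339, plus strand: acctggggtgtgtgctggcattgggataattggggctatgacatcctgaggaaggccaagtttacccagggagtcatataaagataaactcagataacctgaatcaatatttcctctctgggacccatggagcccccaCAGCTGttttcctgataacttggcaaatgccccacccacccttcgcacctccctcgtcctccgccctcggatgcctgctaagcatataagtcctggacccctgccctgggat
The match began 42 bases before the start in Gfi1 and 112 bases before it in Muc2. No match was found in the windows of Atoh1, Spdef, Lyz1 and the other Gfi1 start. Of 32851 mouse promoter windows of this length, 44.8% held a match, and 2 of 5 members did. The former is a share of windows and the latter of members, and Gfi1 has 2 windows, of which 1 held the match. The shares thus compare only roughly, and that of the members does not stand above that of all windows.

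Lyz1 has a near copy, Lyz2, which is expressed in macrophages and lies 5522 bases away on chromosome 10. The windows before their starts are shown because reads from such copies can be placed at either gene, and capitals mark bases that are not identical in the alignment of the pair:
Lyz1, chr10:117292869-117293118, minus strand: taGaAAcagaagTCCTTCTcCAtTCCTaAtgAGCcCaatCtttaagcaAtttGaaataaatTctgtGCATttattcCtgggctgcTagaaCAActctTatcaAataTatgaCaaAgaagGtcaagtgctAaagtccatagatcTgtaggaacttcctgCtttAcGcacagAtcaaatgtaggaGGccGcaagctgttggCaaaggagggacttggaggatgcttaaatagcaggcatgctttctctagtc
Lyz2, chr10:117282273-117282522, minus strand: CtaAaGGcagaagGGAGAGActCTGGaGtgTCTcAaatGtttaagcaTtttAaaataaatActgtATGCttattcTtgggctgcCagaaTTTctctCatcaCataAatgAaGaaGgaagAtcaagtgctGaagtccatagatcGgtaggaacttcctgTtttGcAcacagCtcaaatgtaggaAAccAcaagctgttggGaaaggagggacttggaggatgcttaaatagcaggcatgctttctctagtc
Of 248 aligned bases, 200 were identical, among them the last 50 before the start. How the authors treated reads that match both copies is not given in the sources used here, so the counts of Lyz1 are uncertain to that extent.

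Total counts ran from 5202949 to 15775481 in WT mice (median 8677347) and from 4731176 to 6094983 in KO mice (median 5659163), and the KO libraries were smaller (exact two-sided permutation test, p = 0.0397). The 7 members together took 1260 to 4169 counts in WT mice and 970 to 1456 in KO mice. On the first principal component of all tested peaks WT2 scored -30.9, within the KO range of -63.8 to -11.8, whereas the other WT mice scored 19.3 to 110. A single peak of the table had at least 5 counts in each WT mouse and 0 in every KO mouse. It was picked by this pattern and so is no independent check of genotype. The table lists it under ENSMUSG00000022094, an ID that no table used here pairs with a symbol, and by its place in the order of peaks it falls in a wide stretch of chromosome 14, from 69041401 (end of Stc1) to 76236647 (start of Rps2-ps6), in which Slc39a14 also lies.

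To ask whether the secretory genes differed in accessibility between genotypes, counts were summed over every peak with the same gene ID, and KO was compared with WT over the 36715 gene IDs with enough counts (edgeR's quasi-likelihood test). Levels are in CPM, the count of a gene relative to the scaled size of its library. All 7 members passed the filter. The level was lower on average in KO mice for 7 of 7 members, with log2 fold changes from -0.28 (Atoh1) to -0.05 (Clca1) and a median of -0.19, although Clca1 turned above 0 with loess offsets and under the scaling of the fit over peaks. Of all gene IDs, 50.5% were below 0 and the median was 0.00 to 2 decimals. At an unadjusted p under 0.05, 2 members, Atoh1 and Spdef, were lower and 0 were higher, beside 11.8% of all gene IDs lower and 27.5% in either direction. With Benjamini-Hochberg adjustment over all gene IDs, 0 of 7 passed 0.05 by edgeR and 1 (Atoh1) passed by DESeq2, where 3.91% of all gene IDs passed by edgeR (1.01% lower in KO mice) and 2.69% were lower by DESeq2.

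The fold change of a gene ID moved with its overall level. In the highest of 4 groups of equal size by mean CPM, which holds Atoh1, Muc2, Tff3 and Clca1, the median log2 fold change was -0.12 and 83.3% of gene IDs were below 0. In the next group, which holds Spdef and Lyz1, the median was -0.06 with 61.1% below 0, and in the group of Gfi1 it was 0.13 with 34.8% below 0. The count of 7 of 7 members below 0 is therefore to be read against these shares. With loess offsets, which take out a trend of fold change with level, the log2 fold change was -0.17 for Atoh1 and -0.18 for Spdef, and 0 members had an unadjusted p under 0.05. Among gene IDs split into 20 groups by mean level, Atoh1 stood lower than 91.0% of its group and 0.17 below the group's median, and Spdef stood lower than 82.6% and 0.15 below. Clca1 stood 0.07 above the median of its group. The part of depth in this trend was not tested.

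**Figure D1:**
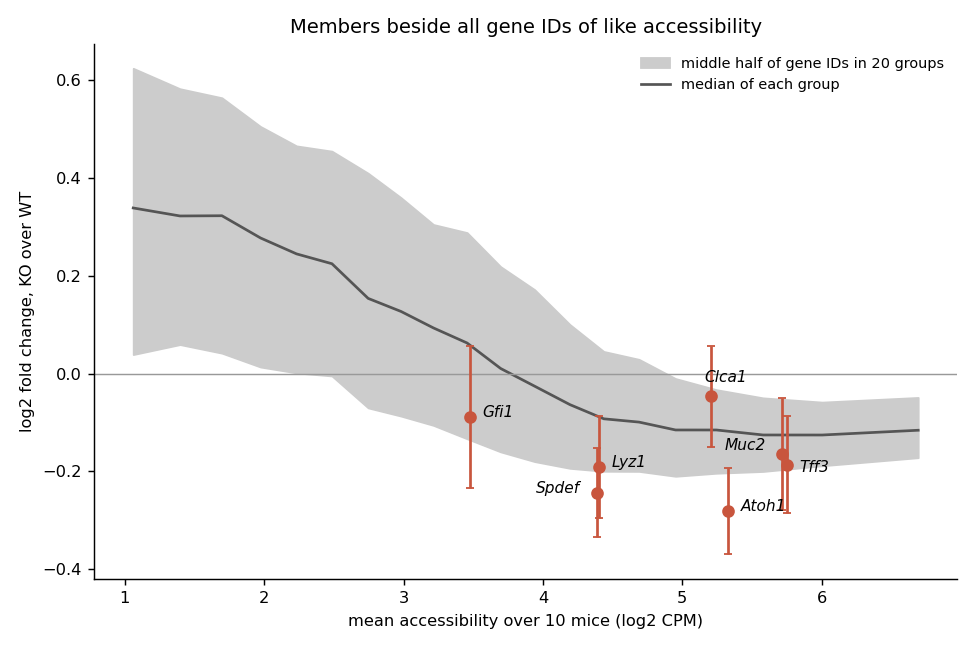
Log2 fold change of KO over WT against the mean level over 10 mice in log2 CPM, with the 7 members as points (bars, SE) and, for all 36715 gene IDs in 20 groups of like level, the median as a line and the middle 50% as a band. Atoh1, at -0.28, and Spdef, at -0.24, lie below the band, and the other 5 members lie within it.

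Atoh1 had the largest difference of the 7 members between genotypes in the reported fit. That of Spdef was larger with loess offsets (log2 fold change -0.18 against -0.17), with 1 surrogate variable (-0.24 against -0.21) and without WT4 (-0.248 against -0.244). For the strongest peak alone that of Tff3 was (-0.27 against -0.12). The summed peaks of Atoh1 gave 39.7, 41.7, 42.6, 49.0 and 47.0 CPM in WT1 to WT5 and 36.7, 40.7, 35.7, 36.5 and 31.8 CPM in KO6 to KO10. In 4 of 5 KO mice the level was below that of every WT mouse, and KO7 alone reached into the WT range, above WT1. This count depended on the scaling, with 3 of 5 under the TMM factors of the fit over peaks, 4 under the factors of the authors' signal and 5, without overlap, under total counts. Among all gene IDs, 8.69% had at least 4 KO mice below every WT mouse. The means were 44.0 ± 3.84 CPM in WT and 36.3 ± 3.15 CPM in KO mice (SD, n = 5), or 1.22-fold lower in KO mice (log2 fold change -0.28, SE 0.09, 95% interval -0.47 to -0.10). The unadjusted p was 0.00502 and the adjusted p 0.0669 by edgeR, and the exact two-sided permutation test of the level per mouse gave p = 0.0159. The call turns on the settings: the adjusted p was 0.0455 with DESeq2, 0.0460 by edgeR without KO7 and 0.0489 by edgeR with the scaling factors of the authors' signal, and over the alternatives it ran from 0.0455 to 0.639.

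No tested peak of Atoh1 passed the test by itself. Peaks were scaled apart from sums, and on the scale of the fit over peaks the sum gave a log2 fold change of -0.20, not -0.28. Peak 1 held 42.6% of the gene's counts and had 19.95 ± 1.48 CPM in WT and 18.3 ± 3.14 CPM in KO mice (log2 fold change -0.12, SE 0.12, edgeR adjusted p = 0.655). Of the 7 peaks with enough counts, 6 were lower and 1 was higher in KO mice, from -0.32 (peak 3) to 0.01 (peak 5), and 0 had an unadjusted p under 0.05. Peak 8, named after its values were seen, failed the filter on low counts (6 to 54 counts) and had 2.79 ± 0.946 CPM in WT and 1.57 ± 0.264 CPM in KO mice (SD, n = 5), with 2 KO mice below every WT mouse. The share of the gene's counts in peak 1 was 42.2 ± 3.50% in WT and 44.0 ± 4.36% in KO mice, so the difference was within the spread of the mice (exact two-sided permutation test, p = 0.476).

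Spdef was the 1 member whose genotypes did not overlap in the reported fit. The summed peaks gave 23.6, 21.4, 23.2, 22.4 and 22.0 CPM in WT1 to WT5 and 18.5, 19.8, 19.3, 19.1 and 18.4 CPM in KO6 to KO10. Every KO mouse lay below every WT mouse, which 2.84% of all gene IDs showed, and this held for Spdef under the scaling of the fit over peaks, the factors of the authors' signal and total counts, the last of which also kept the genotypes apart at Atoh1. The means were 22.5 ± 0.910 CPM in WT and 19.0 ± 0.565 CPM in KO mice (SD, n = 5), or 1.18-fold lower in KO mice. With 88 to 114 counts per KO mouse and 105 to 365 per WT mouse, spreads this small are finer than the counts resolve. The closeness of the mice is therefore not to be read as a trait of the groups. The log2 fold change was -0.24 (SE 0.09, 95% interval -0.43 to -0.05), with an unadjusted p of 0.0149 and an adjusted p of 0.105 by edgeR, and the exact two-sided permutation test gave p = 0.00794, the smallest that 5 against 5 mice allow. Under no alternative did the adjusted p pass 0.05 (0.0657 to 0.751).

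No tested peak of Spdef passed the test by itself. On the scale of the fit over peaks, the sum of Spdef gave a log2 fold change of -0.16, not -0.24. Peak 3, with 40.3% of the counts, had 9.83 ± 1.45 CPM in WT and 9.02 ± 1.52 CPM in KO mice (log2 fold change -0.12, SE 0.16, edgeR adjusted p = 0.754). The log2 fold changes of the 3 tested peaks ran from -0.27 (peak 2) to 0.06 (peak 1). The share of counts in peak 3 was 40.6 ± 6.01% in WT and 41.6 ± 7.09% in KO mice (SD, n = 5; exact two-sided permutation test, p = 0.802). No single peak of Spdef kept the genotypes apart as their sum did.

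Gfi1 had the fewest counts of the members, 45 to 174 per mouse, and the widest interval. Its levels were 9.94, 14.0, 10.4, 11.9 and 10.5 CPM in WT1 to WT5 and 9.42, 8.47, 10.3, 11.8 and 12.8 CPM in KO6 to KO10. The genotypes overlapped widely, with WT2 highest and KO7 lowest of all mice. The means of 11.3 ± 1.68 and 10.6 ± 1.75 CPM (SD, n = 5) did not differ beyond this spread (log2 fold change -0.09, SE 0.14, 95% interval -0.39 to 0.21, edgeR adjusted p = 0.706). Peak 2, with 45.8% of the counts, had a log2 fold change of -0.17 (SE 0.22), and peak 4, a weak peak of 6 to 25 counts, had 0.44 (SE 0.29, edgeR adjusted p = 0.478).

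**Figure D2:**
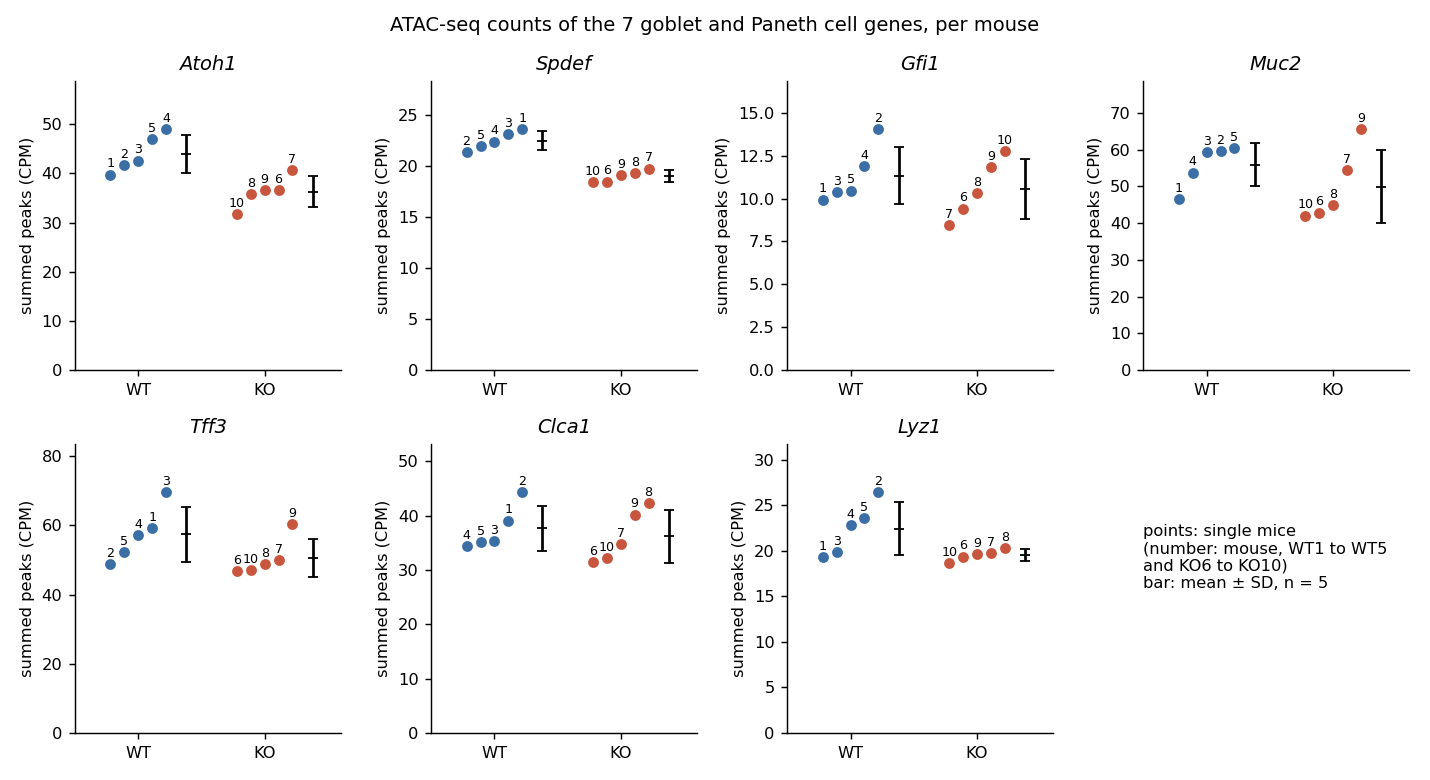
Summed ATAC-seq counts of each member in CPM (vertical axis, from 0) for every mouse, WT in blue and KO in red, with the mean ± SD of 5 mice beside the points. The KO mice lie below all WT mice at Spdef, 4 of 5 do so at Atoh1, and the genotypes overlap at the other members.

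The goblet cell products did not pass the test between genotypes, and single mice ranged widely. Muc2, the mucin that forms the mucus gel, had 46.6, 59.6, 59.4, 53.8 and 60.4 CPM in WT1 to WT5 and 42.9, 54.4, 44.9, 65.6 and 42.1 CPM in KO6 to KO10. KO6, KO8 and KO10 lay below every WT mouse, whereas KO9 had the highest level of all mice. The means were 56.0 ± 5.87 CPM in WT and 49.96 ± 10.03 CPM in KO mice (SD, n = 5), with a log2 fold change of -0.16 (SE 0.11, 95% interval -0.40 to 0.08, edgeR adjusted p = 0.350). Without KO9 the log2 fold change was -0.28 and the adjusted p by edgeR 0.146.

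The strongest peak of Muc2, peak 6, held 21.0% of its counts, the lowest such share of the members. Peak 6 had 12.1 ± 2.53 CPM in WT and 11.9 ± 2.13 CPM in KO mice (log2 fold change -0.04, SE 0.16, edgeR adjusted p = 0.936). Peaks 7 and 8, chosen after their values were seen, had the widest spread among KO mice. Peak 8 ran from 6.15 CPM in KO6 to 17.3 CPM in KO9 among KO mice and from 9.63 CPM in WT4 to 17.5 CPM in WT2 among WT mice. Together these peaks held 26.0% to 40.8% of the Muc2 counts of a KO mouse and 28.7% to 46.4% of those of a WT mouse, without a difference between genotypes beyond the spread (exact two-sided permutation test, p = 0.286). The log2 fold changes of the 7 tested peaks ran from -0.25 (peak 8) to 0.28 (peak 5), with 4 lower and 3 higher.

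Tff3, a trefoil peptide secreted with the mucins, gave 59.2, 48.8, 69.7, 57.2 and 52.3 CPM in WT1 to WT5 and 46.8, 49.9, 48.8, 60.4 and 47.1 CPM in KO6 to KO10. KO6, KO8 and KO10 lay below every WT mouse and KO9 stood above the other KO mice. KO8 and WT2, both at 48.8 CPM when rounded, were nearly equal, and the number of KO mice below every WT mouse was 0 under the TMM factors of the fit over peaks and 1 under total counts, whereas at Muc2 it was 3 under each scaling. The means were 57.4 ± 7.97 CPM in WT and 50.6 ± 5.62 CPM in KO mice (SD, n = 5), with a log2 fold change of -0.19 (SE 0.10, 95% interval -0.39 to 0.02, edgeR adjusted p = 0.227).

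A pair of strong peaks held most Tff3 counts. Peak 2 had 28.6, 20.7, 27.7, 31.0 and 27.1 CPM in WT1 to WT5 and 22.2, 22.2, 21.5, 25.7 and 20.4 CPM in KO6 to KO10, so that WT2 alone of the WT mice lay within the KO range. It was the 1 peak of the 35 tested member peaks below 0.05 before adjustment, beside 5.65% of all tested peaks lower in KO mice at that threshold. Its log2 fold change was -0.28 (SE 0.11, 95% interval -0.51 to -0.05), with an unadjusted p of 0.0214 and an adjusted p of 0.223 by edgeR. By edgeR the unadjusted p was no longer below 0.05 with loess offsets (log2 fold change -0.20, unadjusted p 0.0971), with 1 surrogate variable (-0.18, unadjusted p 0.177), without WT4 (0.0514) and without KO10 (0.0515). It was lower than in the reported fit with DESeq2 (-0.42, unadjusted p 0.00231). By edgeR it was also lower with no filter (-0.44, 0.00214), without WT2 (-0.36, 0.00233) and without KO9 (-0.33, 0.0107). No alternative brought the adjusted p below 0.05, and the lowest was 0.0634 with DESeq2. Peak 5 had 23.0 ± 5.28 CPM in WT and 23.8 ± 2.71 CPM in KO mice (log2 fold change 0.06, SE 0.14, edgeR adjusted p = 0.884). Peak 2 took 54.2 ± 6.95% of the counts of both peaks in WT and 48.5 ± 2.23% in KO mice (SD, n = 5), which did not pass the test (exact two-sided permutation test, p = 0.135). This share needs no scaling between libraries, and it was 46.5% to 47.2% in WT2 and WT3, 56.5% to 61.2% in the other WT mice and 45.5% to 50.9% in KO mice.

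**Figure D3:**
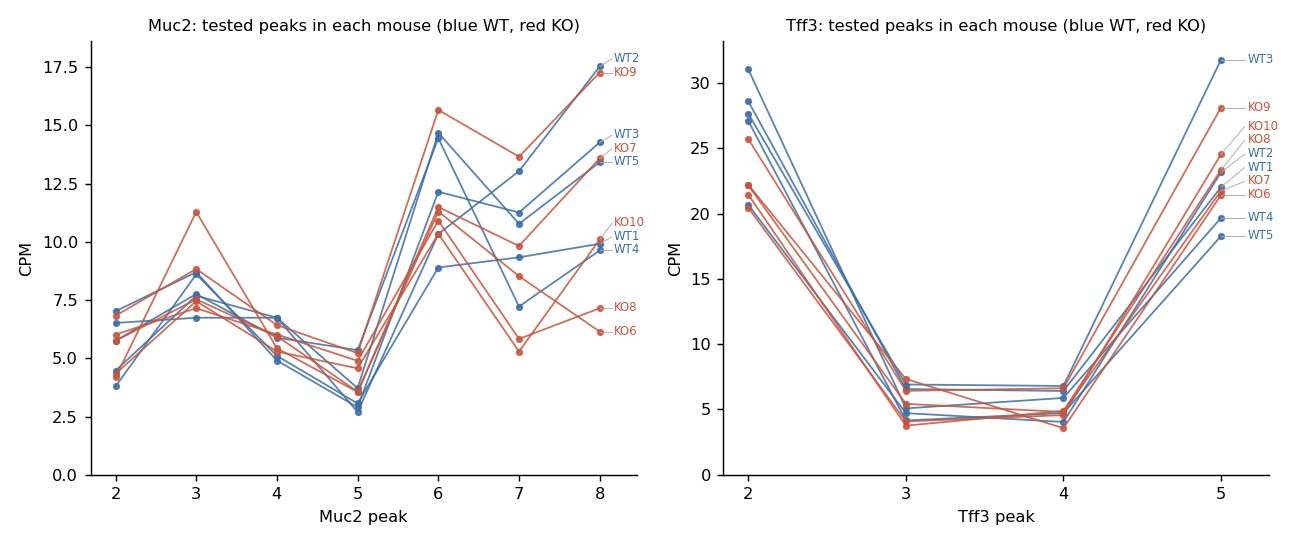
CPM (vertical axis, from 0) of each tested peak of Muc2 and Tff3 in every mouse, with 1 line per mouse, WT in blue and KO in red. At Muc2 the mice spread most at peak 8, from 6.15 CPM in KO6 to 17.5 CPM in WT2, and at Tff3 4 of 5 WT mice lie above the KO mice at peak 2 but not at peak 5.

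Clca1 had the smallest difference between genotypes in the reported fit. That of Gfi1 was smaller under the scaling of the fit over peaks (log2 fold change -0.0044 against 0.036) and that of Muc2 with loess offsets (-0.045 against 0.060). For the strongest peak alone, those of Muc2 (-0.029) and Lyz1 (-0.044) were smaller than that of Clca1 (0.10). Levels of Clca1 were 39.1, 44.4, 35.3, 34.4 and 35.1 CPM in WT1 to WT5 and 31.5, 34.8, 42.3, 40.2 and 32.2 CPM in KO6 to KO10. The genotypes overlapped, with WT2 and KO8 highest and with KO6 and KO10 below every WT mouse. The means of 37.7 ± 4.16 and 36.2 ± 4.84 CPM (SD, n = 5) gave a log2 fold change of -0.05 (SE 0.10, 95% interval -0.26 to 0.17, edgeR adjusted p = 0.787), and the sign turned to 0.060 with loess offsets, 0.10 for the strongest peak alone and 0.036 under the scaling of the fit over peaks.

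With 18 peaks, Clca1 stood high in the table, where 96.4% of gene IDs have at most as many, yet 12 of its peaks were too weak to test. Peak 1, with 29.2% of the counts, had 12.1 ± 3.38 CPM in WT and 12.6 ± 2.47 CPM in KO mice (log2 fold change 0.09, SE 0.18, edgeR adjusted p = 0.846). Of 6 tested peaks 3 were lower and 3 higher in KO mice. Peak 6 failed the filter on low counts and was noticed after its values were seen: it had 3, 2, 4, 4 and 8 counts in WT1 to WT5 and 6, 5, 11, 6 and 6 in KO6 to KO10. Scaled to the libraries it ran from 0.438 to 0.535 CPM in WT and from 1.05 to 2.07 CPM in KO mice, without overlap, as did 1.93% of all peaks in this direction. With no filter its log2 fold change was 1.34 (SE 0.45) and did not pass adjustment (edgeR adjusted p = 0.172). It was the only one of the 61 member peaks whose genotypes did not overlap, and 0 had every KO mouse below every WT mouse, as did 0.501% of all peaks.

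Lyz1, the lysozyme of Paneth cells, had 19.3, 26.5, 19.9, 22.8 and 23.6 CPM in WT1 to WT5 and 19.3, 19.8, 20.3, 19.7 and 18.6 CPM in KO6 to KO10. The KO mice lay close together, with WT1 and WT3 among them and the other 3 WT mice above all of them. With 89 to 120 counts per KO mouse, this closeness is finer than the counts resolve. The means were 22.4 ± 2.90 CPM in WT and 19.5 ± 0.621 CPM in KO mice (SD, n = 5), with a log2 fold change of -0.19 (SE 0.10, 95% interval -0.41 to 0.03) that did not pass the test (edgeR adjusted p = 0.238; exact two-sided permutation test, p = 0.0794). Peak 1, with 27.6% of the counts, had 6.53 ± 0.409 CPM in WT and 6.30 ± 0.960 CPM in KO mice (log2 fold change -0.05, SE 0.16, edgeR adjusted p = 0.911). The lowest log2 fold change of any tested member peak, -0.55 (SE 0.29, edgeR adjusted p = 0.372), was that of Lyz1 peak 11, a weak peak of 4 to 36 counts in which 4 of 5 KO mice lay below every WT mouse, as in 5.02% of tested peaks.

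**Figure D4:**
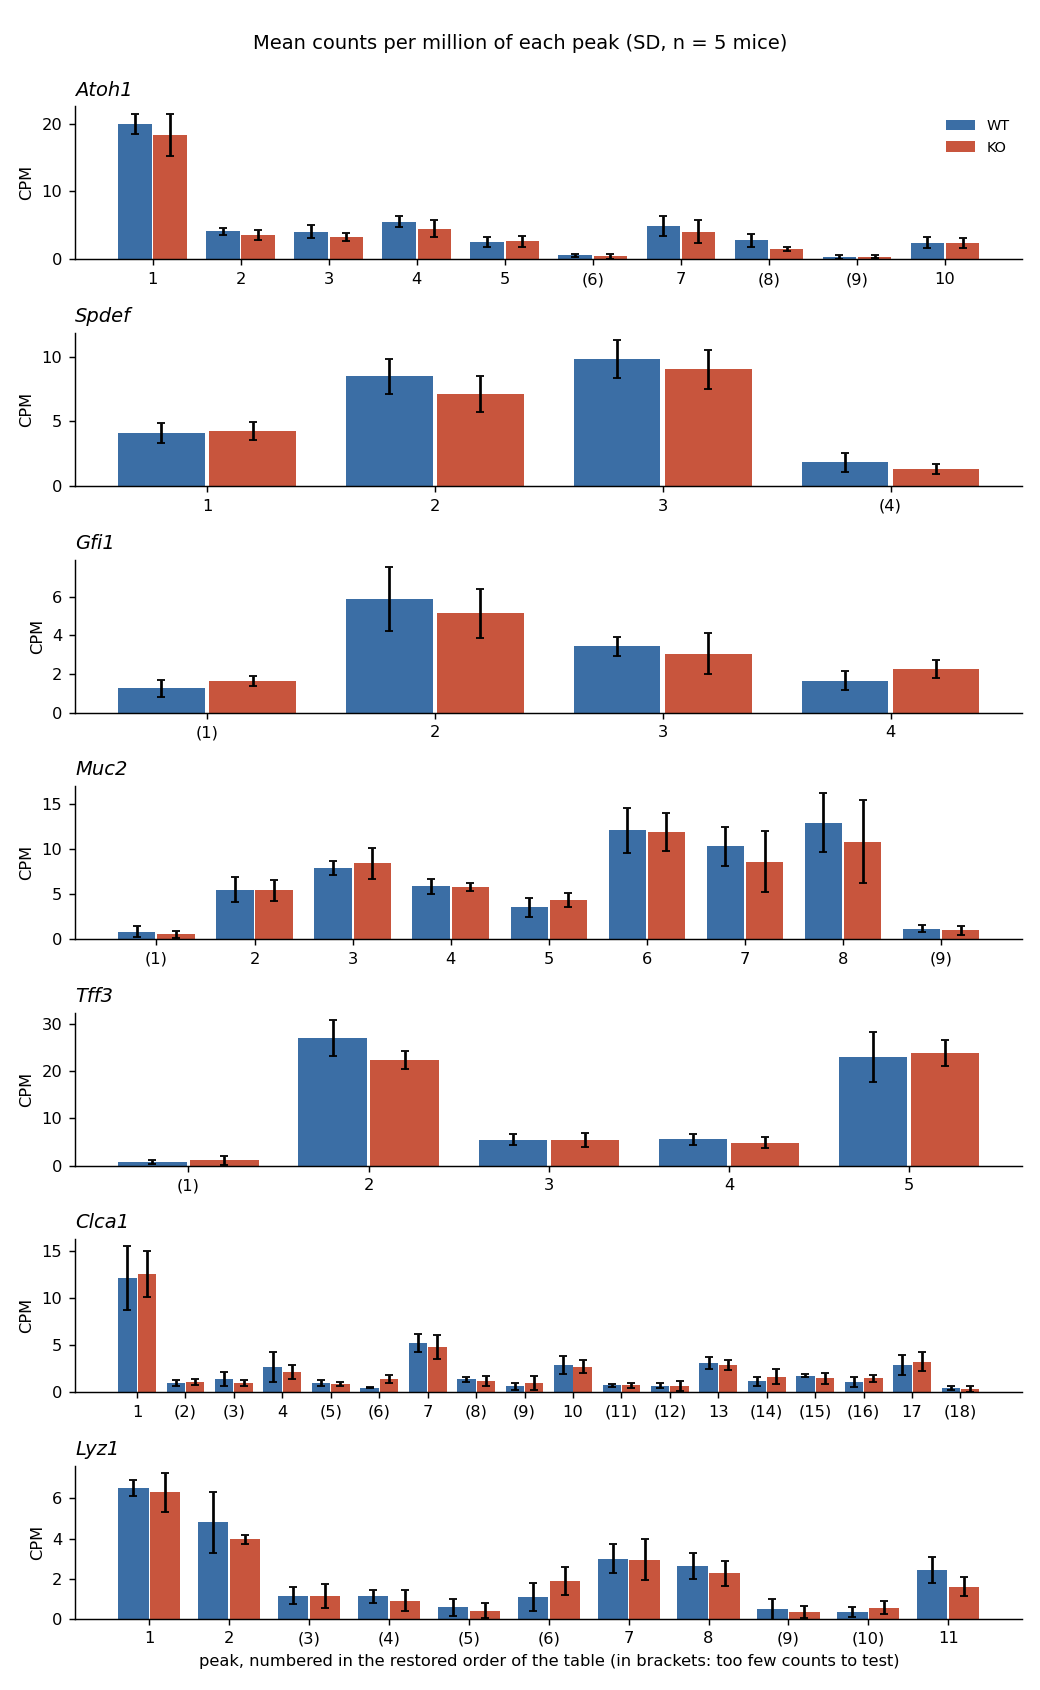
Mean CPM (bars from 0, with SD over 5 mice) of each of the 61 member peaks in WT (blue) and KO mice (red), in 1 panel per gene with its own scale, where a number in brackets marks 1 of the 26 peaks with too few counts to test. The strongest peak of Atoh1, at 19.95 and 18.3 CPM, and peaks 2 and 5 of Tff3 stand out above the other peaks of their genes.

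Over all members, 35 of 61 peaks had enough counts to be tested, 24 of them lower and 11 higher in KO mice, and their median was -0.12 on the log2 scale. Among all 81022 tested peaks 50.4% were lower and the median was 0.00 to 2 decimals. No member peak passed an adjusted p of 0.05 in the fit of all peaks (edgeR), nor did any other peak (0.0%), although 12978 (16.0%) had an unadjusted p under 0.05, and by DESeq2 0 member peaks passed.

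Peaks listed next to the members did not follow them in a single way. Their order is inferred from the running number of the entries, and their distance from the members was not used here. Of the tested peaks among the 20 on either side of Atoh1, 2 were lower and 5 higher in KO mice (median log2 fold change 0.23), whereas the median of Atoh1's own tested peaks was -0.16. Around Tff3, 2 were lower and 8 higher (median 0.11), beside -0.10 for its own peaks. Around Clca1 it was the reverse, with 18 lower and 4 higher (median -0.19) beside -0.02 for its own peaks. At Gfi1 and Lyz1 both lay below 0, with 8 lower and 3 higher around Gfi1 (median -0.13, own peaks -0.14) and 9 lower and 5 higher around Lyz1 (-0.07, own peaks -0.18). The medians around Spdef (0.03, own peaks -0.12) and Muc2 (0.01, own peaks -0.01) were near 0. The flanking peaks of Atoh1 and Tff3 were weaker than the members' own, with medians of 17.3 and 21.0 counts per mouse against 26.5 and 95.9, and those of Clca1 were stronger, with 58.8 against 21.2. Weaker peaks were higher in KO mice across the table, with 29.9% below 0 in the weakest of 4 groups of equal size.

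**Figure D5:**
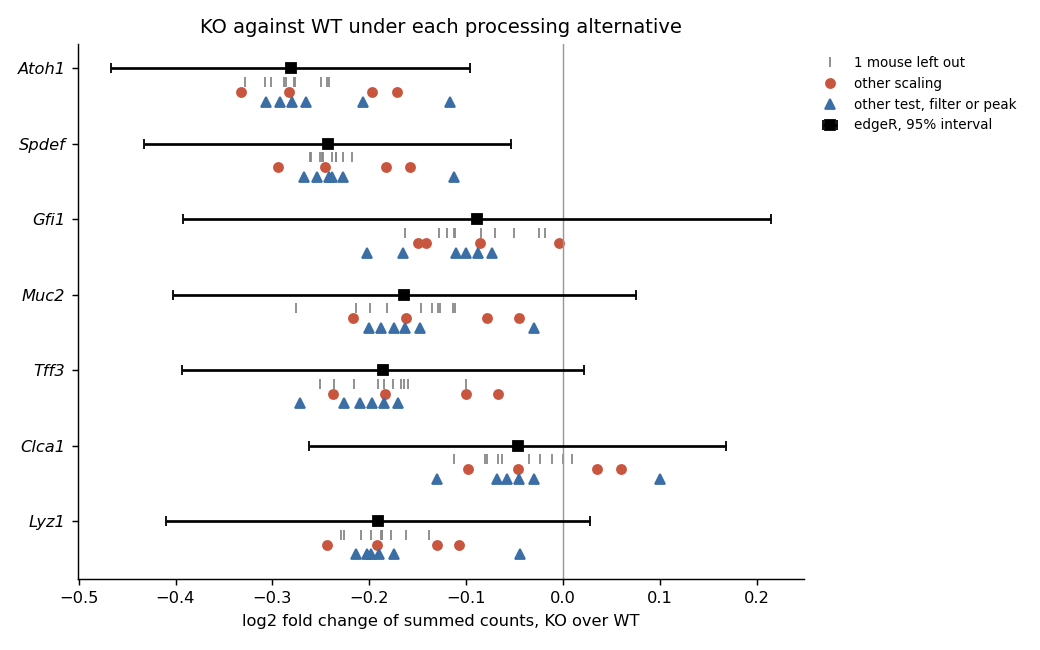
Log2 fold change of the summed counts, KO over WT (horizontal axis), for each member by edgeR with its 95% interval (squares) and under each alternative (small marks). Atoh1 and Spdef have intervals below 0 and stay below 0 under every alternative drawn, from -0.33 to -0.12 for Atoh1, whereas marks of Clca1 lie on both sides of 0.

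Among other genes of the secretory lineage, 2 of 25 goblet cell genes, 0 of 23 Paneth cell genes and 0 of 25 Notch pathway and secretory factor genes could be paired with a gene ID, through a list of genes that the study chose by RNA-seq of these genotypes, so the pair is not independent evidence of a direction. The IDs of that list were read from page images, and runs of zeros in them were set to the standard length, so that a pairing of ID and symbol may be wrong. St6galnac1, which adds sialic acid to mucins, had 12.3 ± 3.18 CPM in WT and 18.9 ± 9.71 CPM in KO mice (SD, n = 5), with 33.0 CPM in KO6 and 7.72 CPM in KO7 (log2 fold change 0.64, SE 0.27, edgeR adjusted p = 0.136). The exact two-sided permutation test of the level per mouse gave p = 0.254. The value depended on single mice and on the peaks used: it was 1.46 for the strongest peak alone (edgeR adjusted p = 0.101), without KO6 the log2 fold change was 0.34 (edgeR adjusted p = 0.415), and without KO7 it was 0.84 and passed the test (edgeR adjusted p = 0.0426). Best2, a channel protein from the list of goblet cell genes, had 7.15 ± 1.65 CPM in WT and 6.64 ± 0.754 CPM in KO mice (log2 fold change -0.10, SE 0.17, edgeR adjusted p = 0.722). Its log2 fold change was -0.25 under loess offsets and -0.016 under the TMM factors of the fit over peaks, and turned to 0.041 without WT1. Markers of absorptive, enteroendocrine, tuft, lymphoid, myeloid, stromal and endothelial cells could not be paired, so the share of other cells in each library was not measured here.

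The members' patterns over the 10 mice were compared with those of 168 gene IDs that have a symbol in the same list, with the same doubt about single pairings, and at least 50 counts on average, by the root mean square (RMS) difference of log2 CPM about each gene's mean. Miga1 was the most like Atoh1 (RMS difference 0.09) and Lyz1 (0.09), and Pet117 the most like Spdef (0.08). Nes was most like Gfi1 (0.12), Aldh3b3 most like Muc2 (0.17), 9230105E05Rik most like Tff3 (0.13) and Slc6a3 most like Clca1 (0.12). Between members, Atoh1 and Spdef were the nearest to each other (0.12). For scale, the members varied about their own means by 0.13 (Spdef) to 0.22 (Muc2) in log2 CPM.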

How the data were processed

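ATAC-seq of sorted IECs from 5 WT and 5 KO mice was used, with genotype and mouse number from the sample labels. Reads were paired-end of 75 bp, and the authors deposited raw read counts per peak for 1 peak set shared by all mice, together with a normalized signal that the authors made by dividing the counts by 1 factor per mouse. The submitters' processing notes name mm10. How reads were aligned, peaks called and assigned to genes, and how duplicates, multiply mapped reads and the transposase offset were treated is not given in the sources used here, and counts per gene depend on it. A second deposited file held the same values and was not used. Of 246501 entries, 22 were empty, and 594 peaks (0.241%) had no gene ID and entered the fit over peaks only.

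Counts were summed over all peaks of a gene ID. Gene IDs and peaks were each fitted over the whole table with edgeR 4.0.16 in R 4.3.3 (filterByExpr by genotype, TMM, glmQLFit, glmQLFTest). Genotype was the single term, and p-values were adjusted over all features tested (Benjamini-Hochberg). CPM use the TMM-scaled library of the fit they belong to, so that the CPM of peaks and of their sum differ in scale, and differently by genotype. The mean log2 size of the scaled library, KO minus WT, was -0.64 for gene sums and -0.72 for peaks. The log2 fold change of a sum is thus not on the scale of those of its peaks. Levels between genes were not compared, since peak widths were not used here. Single values per mouse were compared on log2 CPM (prior count 2) or as a percent by exact two-sided permutation over all labelings, with scipy 1.17.1. The labels do not say whether the mice were littermates or were processed together.

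The 7 members, whose rule uses no measured value, and the gene lists were chosen with earlier results of these data known. Named were all members, their strongest peaks and every member peak at an unadjusted p under 0.05, from each secretory list the genes past an adjusted p of 0.05 or else the 3 of lowest p, and for each member the most similar gene ID with a symbol. With 2 list genes paired, both were named, and the planned sums over cell type markers could not be made. Other features were named after their values were seen.

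The scripts were tested on simulated data. Alternatives were DESeq2 1.42.0, total counts, loess offsets (span 0.3), at least 10 counts in every mouse, no filter on low counts, the strongest peak of the table left out, 1 surrogate variable (sva 3.50.0), the strongest peak of each gene in place of the sum, a prior count of 0.5, and each mouse left out. Scaling of gene sums by the TMM factors of the fit over peaks and by the factors of the authors' signal was added after seeing the data. Promoter windows came from RefSeq on GRCm38.p6, the same build as mm10, and were aligned with biopython 1.88.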

Additional observations from a re-analysis of the deposited data

Results flagged for a closer look

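A single value stood apart from its group. The level of Tff3 in KO9 was 5.92 in log2 CPM, whereas the other 4 KO mice lay between 5.56 and 5.65, and the gap took 0.747 of the range of the group, above Dixon's 95% critical value for 5 values. Of the 32 groups of 5 mice examined this way, 1 was singled out, and chance singles out about 1 in 20. The cause was not tested.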

How the results depend on the processing

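No paired analysis was possible because no mouse number occurs in both genotypes. At an adjusted p under 0.05 the count of member genes was 0 in the reported fit, where 1434 of 36715 gene IDs passed. It was 1 (Atoh1) with DESeq2 (log2 fold change -0.31), where 2.69% of gene IDs passed as lower in KO mice. With the factors of the authors' signal it was also 1 (Atoh1, -0.33), where 1814 of 36715 gene IDs passed. When 1 mouse was left out it was 0 to 1. Atoh1 passed without KO7, where 2234 of 37322 gene IDs passed. With 1 mouse left out the log2 fold change of Atoh1 ran from -0.33 to -0.24. The count of member genes lower at an unadjusted p under 0.05, reported as 2, was 0 with loess offsets (8.91% of all gene IDs lower in that fit), 1 for the strongest peak of each gene (6.24%), 1 with the TMM factors of the fit over peaks (4.17%), 4 with the factors of the authors' signal (17.4%) and 2 to 4 when 1 mouse was left out, with 4 without KO9 (8.28%). Member peaks at an adjusted p under 0.05 numbered 0 under all 17 alternatives, and those lower at an unadjusted p, reported as 1, numbered 2 of 61 with DESeq2 (4.72% of all peaks lower in that fit), 9 of 61 with no filter on low counts (7.09%), 2 of 35 with 1 surrogate variable (3.51%) and 0 (without WT4, 4.54%) to 4 (without KO9, 4.79%) when 1 mouse was left out. Of the list genes, 0 to 1 passed when 1 mouse was left out (St6galnac1, without KO7). The cause of these shifts was not tested. With no filter more peaks were tested, and the strongest peaks of all 7 members also moved down, from -0.12 to -0.29 at Atoh1 and from -0.28 to -0.44 at Tff3.

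Spdef, Gfi1, Muc2, Tff3 and Lyz1 kept their direction and stayed above the threshold under all 20 alternatives. Their size depended on single mice and on the settings. Gfi1 ran from -0.16 (without KO10) to -0.019 (without WT2), with -0.050 without KO6 and -0.024 without KO7, Muc2 reached -0.28 without KO9, and Tff3 was -0.10 without WT3. With loess offsets Muc2 was -0.045, Tff3 -0.067 and Gfi1 -0.15, and with the TMM factors of the fit over peaks Spdef was -0.16, Gfi1 -0.0044, Muc2 -0.078, Tff3 -0.10 and Lyz1 -0.11. For the strongest peak Spdef was -0.11, Gfi1 -0.16, Muc2 -0.029 and Lyz1 -0.044, and Gfi1 was -0.20 with 1 surrogate variable and -0.14 with the factors of the authors' signal. The summed peaks of Clca1 turned to 0.060 with loess offsets, 0.10 for the strongest peak and 0.036 with the TMM factors of the fit over peaks, and ran from -0.11 to 0.0093 when 1 mouse was left out, above 0 without WT2 or KO6. Among the strongest peaks, that of Atoh1 turned to 0.0062 with 1 surrogate variable, that of Muc2 to 0.031 with loess offsets, 0.079 with 1 surrogate variable and -0.16 to 0.044 when 1 mouse was left out, and that of Clca1 to -0.043 with DESeq2, -0.063 with no filter, -0.16 with 1 surrogate variable and -0.016 to 0.23 when 1 mouse was left out. The strongest peak of Lyz1 ran from -0.12 to 0.029 when 1 mouse was left out, that of Spdef from -0.19 (without WT5) to -0.050 (without KO8), with -0.054 without WT4, and that of Gfi1 from -0.30 (without KO10) to -0.050 (without WT2). For the strongest peak of Atoh1 the range with 1 mouse left out was -0.21 (without KO7) to -0.065 (without KO10). The scalings moved the median of all gene IDs to 0.08 (TMM factors of the fit over peaks) and -0.06 (factors of the authors' signal). The number of all gene IDs past the adjusted threshold, 1434, fell to 304 with loess offsets, to 25 with 1 surrogate variable, to 60 for the strongest peak of each gene and to 0 without WT3, WT5, KO6, KO9 or KO10, and was 342 without WT4, 867 without KO8, 893 with total counts, 1814 with the factors of the authors' signal, 2196 with the TMM factors of the fit over peaks, 2220 with DESeq2, 2234 without KO7 and 3311 without WT2. With 45 to 1004 counts per member and mouse, and 0 to 430 per member peak, single peaks were measured less precisely than their sums.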
